A study of Homo sapiens with 12 samples.

Results

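CXCL8, also called interleukin-8, was followed here together with 9 related genes: the ligand genes CXCL1, CXCL2, CXCL3, CXCL5 and PPBP, which lie beside it in one chromosomal cluster, the receptor genes CXCR1, CXCR2 and CXCR4, and CXCL12, the ligand of CXCR4. These 10 genes, of 19775 on the array, were selected by gene symbol with their signals in these samples already known, because CXCL8 differed between groups. They were measured by 18 probe sets, each of which named its gene alone. Their levels and changes over the 4 groups are therefore given as a description without a test, and tests are given for other genes of the chemokine network.

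The data were 12 Affymetrix expression arrays of human cell lines labelled as multiple myeloma, 3 arrays in each of 4 groups. The lines were MMS1 and RPMI8226, the latter also written RPMI and RPMI826 in the labels, and each carried either a control sponge or a sponge against miR-16. All 4 groups had been transduced with lentivirus, sorted by flow cytometry and expanded; the labels give GFP to the virus of the controls and, in the treatment protocol, to both kinds. A sponge is a transcript with repeated binding sites that occupies a microRNA, and the stated aim was to imitate the loss of miR-16 that follows deletion of 13q. Part of the labels call the same treatment a knock down, miR16 KO or siRNA. No label ties an array to a separate culture, so the spread between arrays may be technical. The labels do not say how many transduced populations stand behind a group, so a difference between populations cannot be told apart from one between sponges.

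Chemokines are small secreted proteins that guide white blood cells. CXCL8, CXCL1, CXCL2, CXCL3, CXCL5 and PPBP belong to the group that carries the ELR motif, attracts neutrophils and promotes blood vessel growth through CXCR2 and, for CXCL8, also CXCR1. CXCL12 from stromal cells retains CXCR4-bearing cells in the bone marrow, where myeloma cells grow. CXCL8 transcription is induced by the factors NF-kB, AP-1 and C/EBP, and its unstable messenger RNA is controlled by proteins that bind AU-rich elements.

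The microRNA that the sponge binds, miR-16-5p, is shown first because it defines the treatment. Its RefSeq sequence (GRCh38.p14, gene MIR16-1, chr13:50049027-50049048, minus strand, and the same letters from MIR16-2, chr3:160404754-160404775, plus strand) has the seed, bases 2 to 8, in capitals.
miR-16-5p: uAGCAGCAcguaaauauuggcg

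The promoters are shown because CXCL8 and its cluster neighbours, which differed in signal, can be compared there. RefSeq windows of 300 bases, from 250 before to 50 after each annotated start, were found for 10 of 10 genes, in 12 windows. Below are the 250 bases before the CXCL8 start (GRCh38.p14, chr4:73740319-73740568, plus strand), with capitals marking a match to TGANTCA, an AP-1 motif, and a match to GGANTTNCC, an NF-kB motif.
CXCL8: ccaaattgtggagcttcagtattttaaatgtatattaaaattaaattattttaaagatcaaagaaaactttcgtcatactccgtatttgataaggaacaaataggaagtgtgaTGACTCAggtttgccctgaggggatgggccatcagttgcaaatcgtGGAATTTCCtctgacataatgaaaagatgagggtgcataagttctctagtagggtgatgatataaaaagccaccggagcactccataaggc

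In CXCL8 the NF-kB match began 91 bases and the AP-1 match 137 bases before the start. Both strands were searched, and the 2 matches did not overlap. The NF-kB motif was also found in the windows of CXCL1, CXCL2, CXCL3 and CXCL5, so in 5 of the 10 genes, against 4.27% of all 35116 windows. The stretches around it, 16 bases on each side, are set side by side with the match in capitals. They lie at chr4:73869299-73869339 (plus strand) for CXCL1, chr4:74099248-74099288 (minus) for CXCL2, chr4:74038743-74038783 (minus) for CXCL3 and chr4:73998743-73998783 (minus) for CXCL5.
CXCL1: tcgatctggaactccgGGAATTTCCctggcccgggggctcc
CXCL2: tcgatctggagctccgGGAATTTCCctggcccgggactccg
CXCL3: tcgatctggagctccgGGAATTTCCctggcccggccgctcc
CXCL5: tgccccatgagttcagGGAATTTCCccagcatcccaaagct

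The letters of the NF-kB match were the same in all 5 genes. Around it, CXCL1 equalled CXCL3 at 38 of 41 positions and CXCL2 at 35, but equalled CXCL8 at 19, and CXCL5 equalled CXCL8 at 16. The AP-1 motif was found in the CXCL8 window and in no other window of the 10 genes, against 7.71% of all windows. The C/EBP motif TTGCNNAA was found in the windows of CXCL2 and PPBP and in 10.5% of all windows. CXCL8 had no match to these letters, but shortly before its NF-kB match it reads ttgcaaat, which differs from the motif only in the last letter. Motif matches are letters in a window and do not show that a factor binds, and a missing match does not show that none binds.

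The deposited log2 signals had a lower bound of 4, and array medians lay between 5.80 and 5.90. One array stood apart in its control probes: MMS1 miR-16 sponge replicate 1 had a mean 18S ribosomal RNA signal of 7.84, against 9.56 to 11.14 on the other 11, and changes in MMS1 are also given without it where they rest on it. The labelled cell type was checked by its markers. Of 10 plasma cell markers 5 had a mean below the median signal, among them TNFRSF17, the receptor BCMA, at 4.46 ± 0.26 (SD, n = 12 arrays) and JCHAIN at 4.20 ± 0.24. The other 5 lay above it: SDC1 at 8.90 ± 0.22, XBP1 at 8.51 ± 0.16, SLAMF7 at 6.95 ± 0.24, IRF4 at 6.47 ± 0.15 and PRDM1 at 6.01 ± 0.33. Of 8 erythroid markers 0 had a mean below the median signal. The embryonic globin genes HBE1 and HBZ averaged 14.16 ± 0.24 and 13.05 ± 0.72, where the highest signal of any probe set was 14.71, and the erythroid factor gene GATA1 averaged 9.56 ± 0.20. The erythroid levels and the low plasma cell markers go against the label of myeloma lines. The plasma cell markers above the median do not, but a mean above it does not mark a cell type. Of 10 fibroblast markers 3 had a mean below the median, and of 10 neutrophil markers 5. The identity of the lines was not tested. Chemokine sources other than plasma cells were checked too. Mean levels over 10 neutrophil markers ranged from 5.60 to 5.75 on single arrays, over 10 endothelial markers from 5.46 to 5.75 and over 10 fibroblast markers from 6.035 to 6.404. Over the 10 plasma cell markers they ranged from 5.927 to 6.266.

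CXCL8 was higher with the miR-16 sponge than with the control sponge in MMS1 and lower in RPMI8226. Probe set 202859_x_at read 6.48, 6.11 and 6.74 on the MMS1 control sponge arrays and 8.78, 8.59 and 8.66 on the MMS1 miR-16 sponge arrays. In RPMI8226 it read 7.58, 7.57 and 7.68 with the control sponge and 6.81, 6.82 and 6.63 with the miR-16 sponge. All 3 sponge arrays lay above all 3 controls in MMS1 and below them in RPMI8226. The means were 6.44 ± 0.32 and 8.68 ± 0.09 in MMS1 (SD, n = 3 each), which differ by 2.24 (log2; standard error 0.14), or 4.72-fold. In RPMI8226 the means were 7.61 ± 0.06 and 6.75 ± 0.11, a change of -0.86 (standard error 0.14), or 1.81-fold lower.

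An x_at probe set such as 202859_x_at can bind related transcripts. The other CXCL8 probe set, 211506_s_at, is not an x_at probe set and showed the same pattern at lower signal. It read 5.34, 5.70 and 5.73 on the MMS1 controls and 7.66, 7.36 and 7.48 with the sponge. On the RPMI8226 controls it read 6.70, 6.28 and 6.29, and with the sponge 5.62, 5.80 and 5.30. Again no sponge array overlapped the controls in either line. The change was 1.91 in MMS1 and -0.85 in RPMI8226 (standard error 0.16 each). Over the 12 arrays the 2 probe sets correlated with r = 0.96, as a description, since they share the arrays. Among all probe sets, 2.51% had sponge arrays all above the controls in MMS1 and all below them in RPMI8226, which is the background for this pattern and, since CXCL8 was chosen for it, supports nothing further. Without MMS1 miR-16 sponge replicate 1 the MMS1 changes were 2.19 and 1.83. Leaving out any 1 of the 12 arrays gave 2.07 to 2.39 for 202859_x_at in MMS1 and -0.89 to -0.80 in RPMI8226. Of 9 measured markers of monocytes, a known source of CXCL8, 2 rose and 0 fell in MMS1, where 4.34% of all genes rose and 8.08% fell: VCAN by 0.97 and ITGAM by 0.64 (limma, adjusted p = 0.000362 and 0.0182). In RPMI8226, where 0.217% of all genes were called, 0 passed, and 1 had an unadjusted p under 0.05. The share of all genes at an unadjusted p under 0.05 is not given, so such counts, here and below, have no background. The mean level over the 9 was 5.673 to 5.784 on the MMS1 controls and 5.773 to 6.004 with the sponge, and 5.732 to 5.890 and 5.809 to 5.955 in RPMI8226, while CD14 stayed between 5.02 and 5.54 on all arrays. Of 8 erythroid markers, 2 rose and 4 fell in MMS1, and 1 fell in RPMI8226, where 0.202% of all genes fell. Their part in the CXCL8 difference was not tested. These are bulk samples, in which more cells with CXCL8 and more CXCL8 RNA per cell cannot be told apart.

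**Figure D1:**
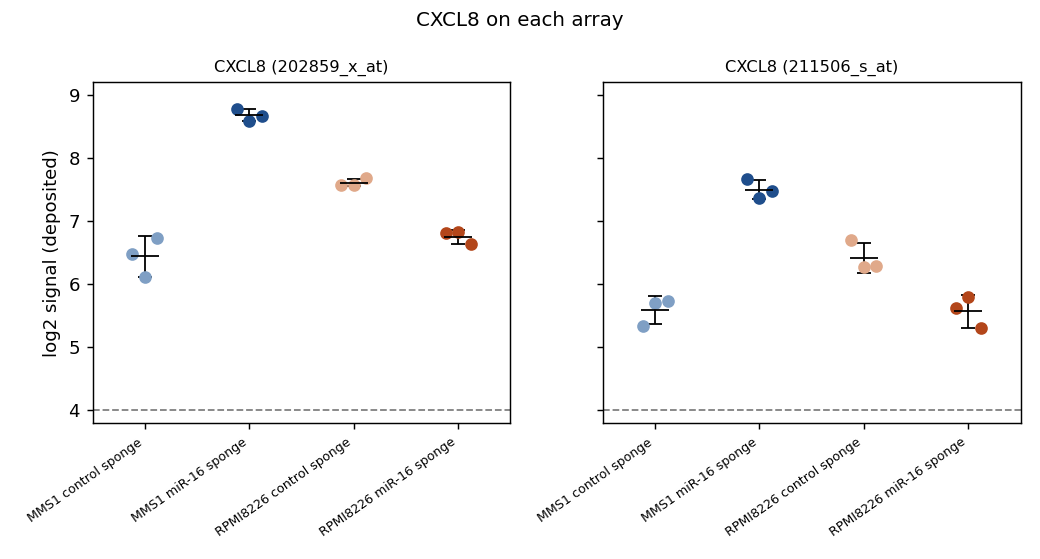
Deposited log2 signal of both CXCL8 probe sets on each of 12 arrays, with 3 points per group, the group mean as a horizontal bar and its SD as the error bar; the dashed line is the lower bound of 4. The MMS1 miR-16 sponge arrays stand highest, at 8.59 to 8.78 on 202859_x_at, followed by the RPMI8226 controls at 7.57 to 7.68, and the remaining groups overlap.

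The 4 groups therefore had the same order at the top on both probe sets: MMS1 with the miR-16 sponge, then RPMI8226 with the control sponge. The other 2 groups, RPMI8226 with the miR-16 sponge and MMS1 with the control sponge, did not differ beyond their spread, at 6.75 ± 0.11 and 6.44 ± 0.32 on 202859_x_at and at 5.57 ± 0.26 and 5.59 ± 0.22 on 211506_s_at. Between the control sponge groups, RPMI8226 lay above MMS1 by 1.17 on 202859_x_at (standard error 0.14, or 2.25-fold) and by 0.84 on 211506_s_at (standard error 0.16), without overlap. The lines with their control sponges thus differed in the direction opposite to that of the sponge groups. No array of either probe set came near the bound, the lowest reading being 5.30.

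None of the 5 chosen cluster neighbours had a sponge change near the size of that of CXCL8, nor did CXCL6, a further ELR ligand of the cluster that was not among those chosen, with 0.33 in MMS1 and -0.01 in RPMI8226. The 9 probe sets of the 5 ranged from the bound up to 6.69, and the largest sponge change among them was 0.28 in size in MMS1 and 0.27 in RPMI8226. CXCL1, a neutrophil attractant first described as a melanoma growth factor, read 5.28, 5.58 and 5.23 on the MMS1 controls against 5.57, 5.15 and 5.21 with the sponge. In RPMI8226 CXCL1 read 5.67, 5.66 and 5.51 against 5.39, 5.84 and 5.55. The groups overlapped in both lines, with changes of -0.05 and -0.02 (standard error 0.15 each). In MMS1 the overlap rested on miR-16 sponge replicate 1, the array that stood apart in its control probes. When it was left out, the remaining sponge arrays, at 5.15 and 5.21, lay below all controls and the change was -0.19. With each array left out in turn, the MMS1 change ranged from -0.19 to 0.06.

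CXCL3, a close relative of CXCL1, was the neighbour with separated groups in both lines, at a small size. It read 5.19, 5.33 and 5.18 on the MMS1 controls and 5.41, 5.47 and 5.56 with the sponge. In RPMI8226 it read 5.63, 5.53 and 5.63 with the control sponge and 5.91, 5.98 and 5.71 with the miR-16 sponge. The sponge arrays lay above the controls in both lines, unlike those of CXCL8, which lay below them in RPMI8226. The changes were 0.25 and 0.27, each with a standard error of 0.10, and the RPMI8226 controls lay 0.36 above the MMS1 controls. The changes are under a factor of 1.5, at 1.19-fold and 1.20-fold.

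CXCL2, which acts on neutrophils through CXCR2, had 3 probe sets that disagreed in level and direction. The first, 1569203_at, read 5.68, 5.66 and 5.82 on the MMS1 controls and 5.49, 5.32 and 5.57 with the sponge, a change of -0.26 (standard error 0.14). Those groups did not overlap, whereas the RPMI8226 groups of the same probe set did, with -0.13. The other CXCL2 probe sets overlapped in both lines: 230101_at gave -0.07 and 0.12, and 209774_x_at gave -0.12 and 0.17 at readings from the bound to 4.92. An x_at probe set can bind related transcripts, and CXCL1, CXCL2 and CXCL3 are similar in sequence.

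CXCL5, made by epithelial cells and platelets, gave changes of 0.04, -0.28 and -0.03 on its 3 probe sets in MMS1 and 0.03, -0.01 and 0.05 in RPMI8226. All 6 comparisons overlapped, and 215101_s_at was within 0.05 of the bound on 2 arrays. PPBP, the precursor of the platelet chemokine CXCL7, had 1 probe set with readings of 4.63 to 5.29 and changes of 0.14 and -0.06 (standard error 0.15 each), with overlapping groups. CXCL1, PPBP and all CXCL5 probe sets were below the array median on 12 of 12 arrays. Probe sets differ in how strongly they bind, so a low reading is not by itself a low transcript level.

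**Figure D2:**
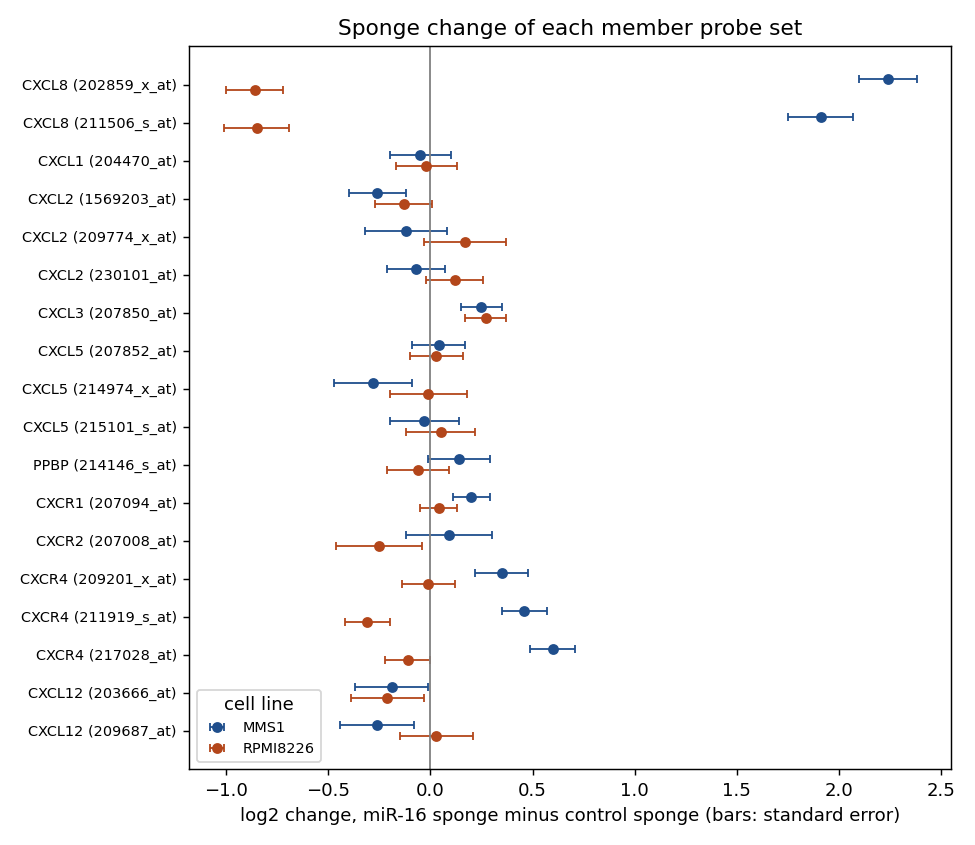
Log2 change with the miR-16 sponge (sponge mean minus control mean, 3 arrays each) of the 18 probe sets in MMS1 and RPMI8226, with standard errors from the linear model as bars. Both CXCL8 probe sets stand apart, at 2.24 and 1.91 in MMS1 and at -0.86 and -0.85 in RPMI8226, and the other 16 lie between -0.31 and 0.60.

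CXCR4, the receptor of CXCL12, was higher with the sponge in MMS1 at a small size. Probe set 217028_at read 5.10, 5.08 and 5.02 on the MMS1 controls and 5.83, 5.51 and 5.65 with the sponge, a change of 0.60 (standard error 0.11, or 1.51-fold). Probe set 211919_s_at read 5.66, 5.67 and 5.53 against 6.09, 6.10 and 6.06, a change of 0.46 (standard error 0.11). On these 2 probe sets the MMS1 groups did not overlap. The remaining one, 209201_x_at, read 5.61, 5.26 and 5.35 against 5.99, 5.60 and 5.69, a change of 0.35 (standard error 0.13) with 1 sponge array below the highest control. Without MMS1 miR-16 sponge replicate 1 the 3 changes were 0.51, 0.46 and 0.24.

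In RPMI8226 the CXCR4 groups overlapped on all 3 probe sets. There 217028_at read 5.26, 5.50 and 5.23 against 5.29, 5.21 and 5.16, a change of -0.11. On 211919_s_at the readings were 5.72, 5.60 and 5.91 against 5.27, 5.61 and 5.41, a change of -0.31, and 209201_x_at gave -0.01. The 3 CXCR4 probe sets correlated with each other at r = 0.61 to 0.77 over the 12 arrays, less closely than the CXCL8 pair. All CXCR4 readings lay between 5.02 and 6.10.

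The receptors of CXCL8 itself showed small differences. CXCR1 had 1 probe set, which read 8.70, 8.72 and 8.61 on the MMS1 controls and 8.94, 8.88 and 8.80 with the sponge, without overlap, a change of 0.20 (standard error 0.09). In RPMI8226 it read 8.69, 8.66 and 8.74 against 8.72, 8.77 and 8.73, a change of 0.04. Its whole range over 12 arrays was 0.33, from 8.61 to 8.94, the narrowest of the 18. Of 10 markers of neutrophils, the cells best known for CXCR1, 5 had a mean below the median signal, among them ELANE at 4.67 ± 0.24, while MPO lay above it at 6.42 ± 0.17. By limma 0 of the 10 passed in either line, with 0 and 1 at an unadjusted p under 0.05 in MMS1 and RPMI8226. Whether this probe set read CXCR1 RNA was not tested.

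CXCR2 read 4.44, 4.37 and 4.03 on the MMS1 controls and 4.01, 4.23 and 4.86 with the sponge. In RPMI8226 it read 4.73, 4.67 and 5.26 against 4.66, 4.53 and 4.71. The sponge groups overlapped their controls in both lines, and 2 of 12 arrays, both of MMS1, were within 0.05 of the bound. The RPMI8226 controls lay above the MMS1 controls by 0.61 (standard error 0.21) without overlap.

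CXCL12 overlapped between sponge and control in both lines on both probe sets. On 203666_at the readings were 6.33, 6.09 and 6.56 on the MMS1 controls against 6.28, 5.90 and 6.23 with the sponge. In RPMI8226 they were 6.42, 6.54 and 6.05 against 6.26, 6.29 and 5.82. The changes were -0.19 and -0.21 (standard error 0.18 each), and 209687_at gave -0.26 and 0.03 at readings of 4.64 to 5.30.

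**Figure D3:**
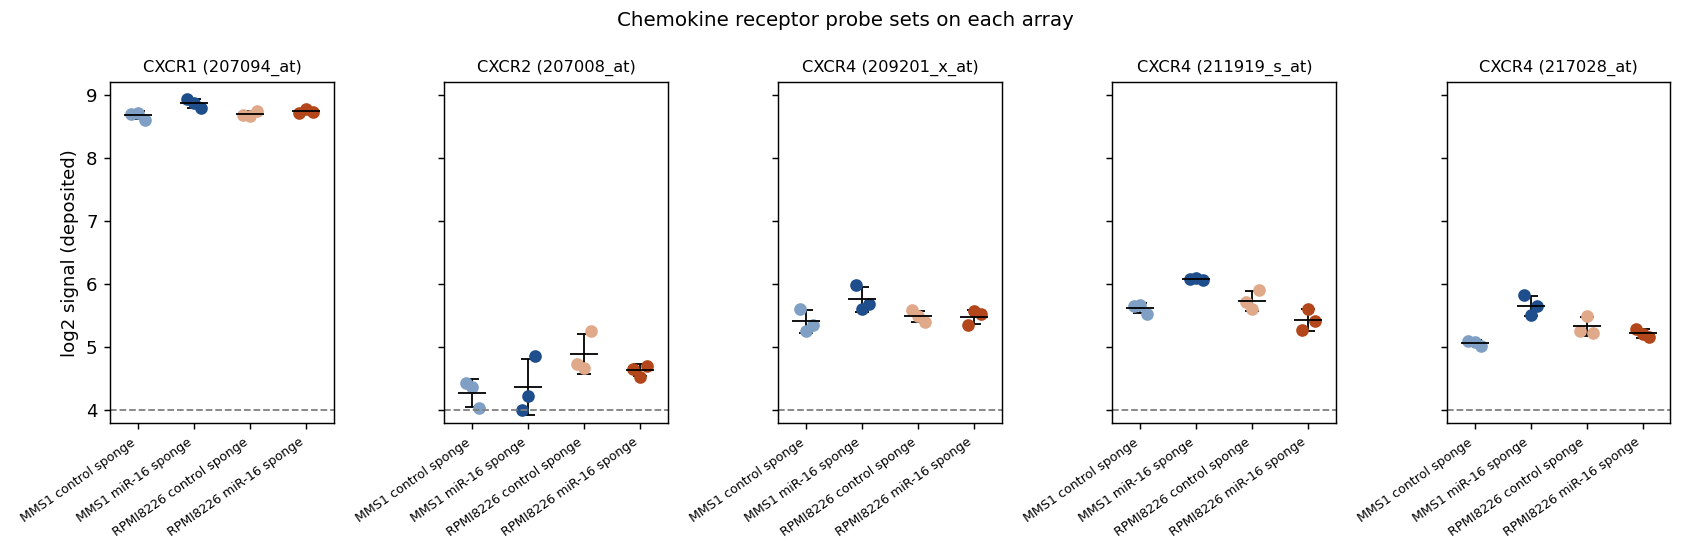
Deposited log2 signal of the receptor probe sets on each of 12 arrays, with 3 points per group, the mean as a horizontal bar and the SD as the error bar; the dashed line is the lower bound of 4. CXCR1 stays between 8.61 and 8.94 in all groups, CXCR2 reaches down to 4.01, and CXCR4 is highest in MMS1 with the miR-16 sponge on all 3 probe sets.

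Over the 18 probe sets, sponge arrays lay all above the controls for 6 in MMS1 and all below for 1, where 11.6% of all probe sets were all above and 15.2% all below. In RPMI8226 the counts were 1 above and 2 below, against 7.27% and 14.6% of all probe sets. Between the control groups, RPMI8226 lay all above MMS1 for 5 of the 18 and all below for 0, against 17.1% and 10.5%. The median change of the 18 was 0.06 in MMS1 and -0.02 in RPMI8226, and that of all probe sets was -0.02 in both lines. Nothing is read from these counts, because the genes were chosen on the same contrasts. Only 5 of the 216 readings were within 0.05 of the bound.

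In the main fit no measured gene around CXCL8 on the chromosome, apart from the 10 chosen ones, passed the test of the sponge effect in either line. From CXCL8 to CXCL2 the gene table lists 9 protein-coding genes, of which 6 are among the 10 described above and the others are CXCL6, PF4V1 and PF4. Together with 6 genes on each side there were 15 further genes, of which 13 had a probe set of their own. Of these 13, 0 had an adjusted p under 0.05 by limma in MMS1 or in RPMI8226, where 12.4% and 0.217% of 19775 genes did. The adjustment covered all 54613 probe sets, and 4 and 1 of the 13 had an unadjusted p under 0.05. RASSF6, the gene next to CXCL8 outside the cluster, gave 0.16 in MMS1 and 0.21 in RPMI8226 (limma, adjusted p = 0.695 and 0.674). CXCL6, the next gene inside it, gave 0.33 and -0.01 (adjusted p = 0.155 and 0.978). EREG, which encodes the growth factor epiregulin on the far side, gave 0.26 and -0.16 (adjusted p = 0.198 and 0.586).

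**Figure D4:**
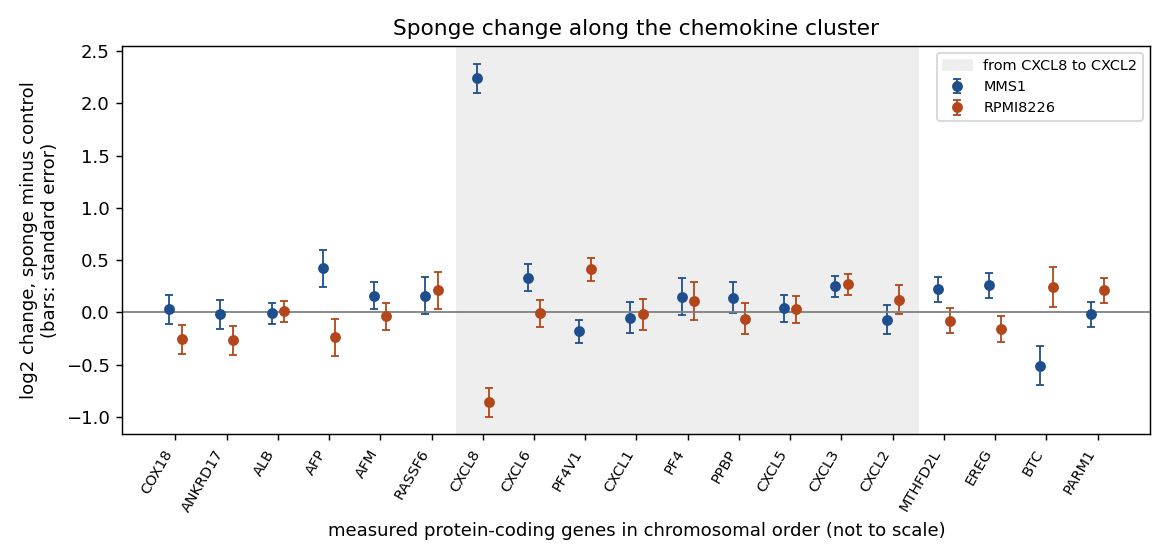
Log2 change with the miR-16 sponge in MMS1 and RPMI8226 for the measured protein-coding genes in their chromosomal order, not to scale, with standard errors as bars and the cluster from CXCL8 to CXCL2 shaded. CXCL8 stands at 2.24 and -0.86; the 13 genes that are not among the 10 chosen lie between -0.51 (BTC in MMS1) and 0.42 (AFP in MMS1).

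The wider chemokine family was read from lists of genes, each represented by the probe set with the highest mean. Of 10 other CXC ligands, 0 passed in either line by limma's test, where 12.4% of all genes passed in MMS1 and 0.217% in RPMI8226, and 2 and 1 had an unadjusted p under 0.05. The interferon-induced ligands CXCL9, CXCL10 and CXCL11 ranged from 4.19 to 5.51 over all arrays. PF4V1, a variant of platelet factor 4, gave -0.18 in MMS1 and 0.41 in RPMI8226, and the difference between the lines passed (0.59, adjusted p = 0.0389), but it failed whenever 1 of 10 arrays was omitted, that is any but replicate 1 of the MMS1 controls and of the RPMI8226 sponge group (adjusted p = 0.0545 to 0.0943). It also failed when the replicate number was a block (adjusted p = 0.0582). PF4V1 was named for this after its value was seen.

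Of 22 measured CC, XC and CX3C ligands, 1 rose and 0 fell in MMS1, or 4.55% called against 12.4% of all genes. By limma 0 passed in RPMI8226, against 0.217% of all genes, with 2 at an unadjusted p under 0.05. CCL2, a monocyte attractant, rose from 4.73 ± 0.21 to 5.44 ± 0.13 (SD, n = 3 each), a change of 0.71 (limma, adjusted p = 0.027). The call failed when replicate 2 or 3 of either MMS1 group was omitted (adjusted p = 0.072 to 0.112). Of 17 measured other receptors, 1 rose in MMS1, or 5.88% called against 12.4% of all genes, and by limma 0 passed in RPMI8226, with 4 at an unadjusted p under 0.05. CCR8, a receptor of T cell subsets, rose by 0.92 in MMS1 (limma, adjusted p = 0.0033), and its RPMI8226 value was -0.10 (adjusted p = 0.841).

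A list for the induction of CXCL8 held 27 measured genes: cytokines, receptors, the antagonist IL1RN and the signalling genes MYD88, IRAK1 and TRAF6. In MMS1 2 of the 27 rose and 4 fell, where 4.34% of all genes rose and 8.08% fell. The median change of the 27 was -0.07 against -0.04 over all genes. In RPMI8226 0 passed by limma, against 0.217% of all genes, with 6 at an unadjusted p under 0.05. IL6, an inflammatory cytokine and a growth factor of myeloma cells, rose from 6.35 ± 0.05 to 7.18 ± 0.13 in MMS1 (change 0.84, limma adjusted p = 0.00266). In RPMI8226 IL6 gave -0.19 (adjusted p = 0.618), and the difference between the lines passed (adjusted p = 0.0131), as it did for 5.9% of all genes (2.63% higher and 3.27% lower in RPMI8226). IL6 was also higher in the RPMI8226 controls than in the MMS1 controls, by 0.75 (adjusted p = 0.00662), the same order of control groups as for CXCL8. By contrast MYD88, the adaptor of the interleukin-1 and Toll-like receptors, fell by 1.15 in MMS1 (adjusted p = 0.000158) and its partner kinase gene IRAK1 fell by 0.77 (adjusted p = 0.00017). IL18, a cytokine of the interleukin-1 family, fell by 0.53 (adjusted p = 0.0115), but not without MMS1 control sponge replicate 2 (adjusted p = 0.052). Named after their values were seen, IL1RAP rose by 0.56 (adjusted p = 0.0222) and OSMR fell by 0.43 (adjusted p = 0.0362). IL1RAP failed when array 1 or 2 of either MMS1 group was omitted (adjusted p = 0.0683 to 0.0892), but gave 1.38 as the mean of its 2 probe sets (adjusted p = 3.24e-06). OSMR failed when any of 6 arrays was omitted (adjusted p = 0.0525 to 0.107) and as the mean of its 3 probe sets (adjusted p = 0.388).

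Among the genes listed for the transcription factors of the CXCL8 promoter, more fell than rose in MMS1, where CXCL8 was higher. The list also holds kinase and inhibitor genes of NF-kB, among them IKBKB and NFKBIA, which fell. Of 24, 2 rose and 8 fell, where 4.34% of all genes rose and 8.08% fell, with a median change of -0.23 against -0.04. JUN, the AP-1 subunit, rose by 1.02 (limma, adjusted p = 3.36e-05; 0.59 as the mean of its 4 probe sets), and NFKBIZ, a nuclear co-factor of NF-kB, rose by 0.65 (adjusted p = 0.00107). JUNB, another AP-1 subunit, fell by 1.07 (adjusted p = 3.31e-05), and the immediate early factor gene EGR1 fell by 1.58 (adjusted p = 3.7e-06). FOS gave -0.63 and did not pass (adjusted p = 0.255).

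Genes of NF-kB and its regulators, named after their values were seen, were among those that fell in MMS1. The subunit gene RELA fell by 0.74 (limma, adjusted p = 0.00228), IKBKB, which encodes an activating kinase, fell by 1.30 (adjusted p = 0.00281; -0.61 as the mean of its 3 probe sets) and the inhibitor gene NFKBIA, itself a target of NF-kB, fell by 0.50 (adjusted p = 0.00498; -0.31 as the mean of its 2). NFKB1 fell by 0.46 (adjusted p = 0.0189), but failed when MMS1 control array 1 or 2 or sponge array 2 was omitted (adjusted p = 0.0682 to 0.0824). RELB fell by 0.51 (adjusted p = 0.0302), but failed when any of 5 arrays was omitted, the 3 MMS1 controls and sponge arrays 1 and 3 of that line (adjusted p = 0.0522 to 0.121), and when the replicate number was a block (adjusted p = 0.0506). CEBPD, the remaining one that fell, gave -0.53 (adjusted p = 0.00611), and -0.25 as the mean of its 2 probe sets (adjusted p = 0.29).

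In RPMI8226, where CXCL8 was lower, 0 of the 24 rose and 1 fell, against 0.0152% and 0.202% of all genes. EGR1 fell from 10.85 ± 0.21 to 9.93 ± 0.13 (change -0.91, limma adjusted p = 0.0135; -0.53 as the mean of its 3 probe sets), but not without RPMI8226 control sponge replicate 1 or RPMI8226 miR-16 sponge replicates 1 or 2 (adjusted p = 0.065 to 0.0849). JUN gave 0.10 there (adjusted p = 0.735), and the difference between the lines passed (adjusted p = 0.00273). EGR1 thus fell in both lines, with the limit just given for RPMI8226, while CXCL8 was higher in MMS1 and lower in RPMI8226. Whether EGR1 had a part in the CXCL8 difference was not tested.

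**Figure D5:**
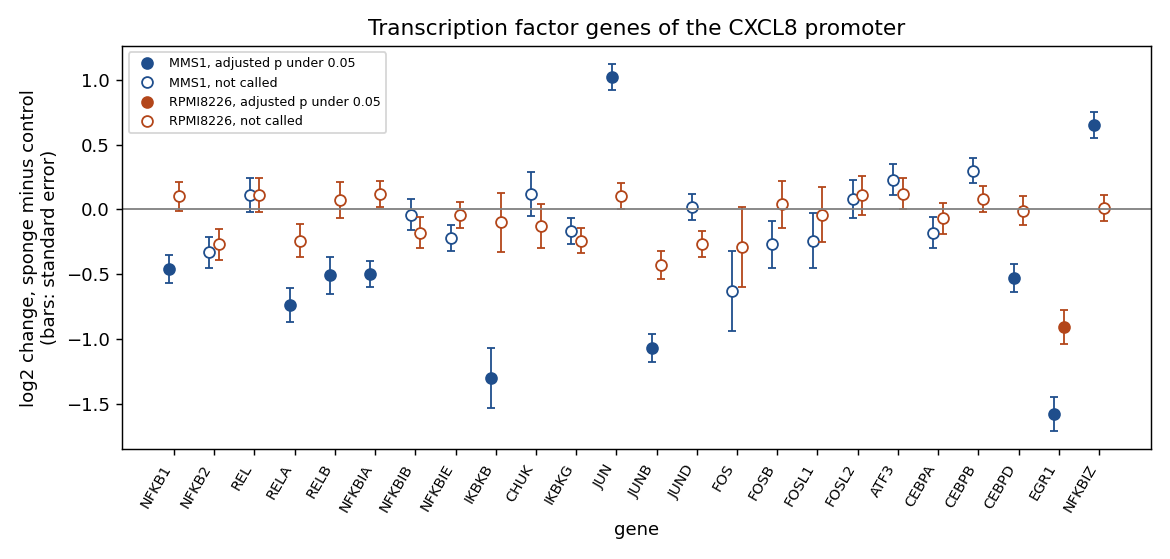
Log2 change with the miR-16 sponge of 24 genes listed for the transcription factors of the CXCL8 promoter in MMS1 and RPMI8226, with standard errors as bars. Kinase and inhibitor genes of NF-kB are among the 24. Filled points have an adjusted p under 0.05 in limma's test. In MMS1, JUN (1.02) and NFKBIZ (0.65) rose and 8 genes fell, down to -1.58 for EGR1, and in RPMI8226 EGR1 fell.

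Of 14 measured genes for the turnover of chemokine messenger RNA, 1 rose and 1 fell in MMS1, or 14.3% called, near the 12.4% of all genes. In RPMI8226 0 passed by limma, against 0.217% of all genes, with 6 at an unadjusted p under 0.05. DUSP1, a phosphatase that switches off the kinase p38, rose from 7.25 ± 0.06 to 8.09 ± 0.06 in MMS1 (change 0.84, limma adjusted p = 0.000118; 0.31 as the mean of its 3 probe sets) and gave -0.00 in RPMI8226 (adjusted p = 0.991). The difference between the lines passed (adjusted p = 0.00355), but not for that mean (adjusted p = 0.157). ZFP36L2, a protein of the tristetraprolin family that destabilizes such messengers, fell by 0.39 in MMS1 (adjusted p = 0.0195), but failed when MMS1 control array 1 or 3 or sponge array 2 was omitted (adjusted p = 0.075 to 0.0844) and as the mean of its 4 probe sets (adjusted p = 0.172).

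Of 28 signalling genes below the chemokine receptors, 3 rose and 3 fell in MMS1, where 4.34% of all genes rose and 8.08% fell. In RPMI8226 0 passed by limma, against 0.217% of all genes, with 3 at an unadjusted p under 0.05. GNAI1, an inhibitory G protein subunit, rose from 4.65 ± 0.12 to 6.08 ± 0.14 (change 1.43, limma adjusted p = 6.82e-06) and the GTPase gene RAC1 rose by 0.60 (adjusted p = 0.000979). DOCK2, an activator of RAC in white blood cells, fell from 7.98 ± 0.08 to 6.32 ± 0.16 (change -1.65, adjusted p = 5.53e-07), and STAT3 fell by 1.35 (adjusted p = 3.11e-06). As the means of their probe sets these were -0.89 for DOCK2 and -0.86 for STAT3. Of 18 genes that process or bind chemokines, 0 passed by limma in either line, against 12.4% and 0.217% of all genes, with 3 and 2 at an unadjusted p under 0.05.

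Between the control sponge groups, 22 of the 160 network genes passed, 9 higher and 13 lower in RPMI8226, or 13.8% against 10.3% of all genes (6.52% higher and 3.8% lower). The signalling genes with the smallest p were lower in RPMI8226: -2.70 for DOCK2 (limma, adjusted p = 7.67e-09; -1.39 as the mean of its 2 probe sets), -1.61 for RAC2, the GTPase of blood cells (adjusted p = 2.18e-07), and -1.10 for STAT3 (adjusted p = 2.25e-05). GNAI1 was higher there by 1.21 (adjusted p = 3.55e-05), given after its value was seen. OSMR, the oncostatin M receptor, gave -0.98 (adjusted p = 0.000171; -0.36 as the mean of its 3 probe sets), and TNFRSF1A, the main receptor of tumour necrosis factor, was higher by 0.61 (adjusted p = 0.00717). JUN and CEBPA were higher by 0.72 and 0.63 (adjusted p = 0.000733 and 0.00559; 0.39 for JUN as the mean of its probe sets), and CEBPD gave -0.52 (adjusted p = 0.0082, or 0.142 as the mean of its probe sets). The turnover gene ZFP36L2 gave -0.47 (adjusted p = 0.00781). NDST1, an enzyme of the heparan sulfate that binds chemokines, was higher by 0.35 (adjusted p = 0.0407), but failed when any of 8 arrays was omitted, namely every control array and sponge arrays 2 and 3 of RPMI8226 (adjusted p = 0.0529 to 0.159), and as the mean of its 3 probe sets (-0.07, adjusted p = 0.805).

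The genes whose signals followed CXCL8 most closely were taken by Pearson correlation over the 12 arrays, among 799 genes whose group means spanned at least 1. ZFAND5, a regulator of the proteasome, and CALB1, the calcium-binding protein calbindin, stood first at r = 0.98 each, ahead of BZW2 and TFPI, the tissue factor pathway inhibitor, at 0.97. SOSTDC1 and SVIP followed at 0.96, with MS4A3, a gene of granulocyte precursors, and RPL22L1 at 0.95. All 8 were higher with the sponge in MMS1, by 1.02 (BZW2) to 3.64 (CALB1), and for SOSTDC1, whose MMS1 control arrays were at the bound, by at least 4.53. They gave -0.08 to -1.07 in RPMI8226. CALB1 had group means of 4.84 and 8.48 in MMS1 and 6.37 and 5.30 in RPMI8226. The likeness rests on 4 groups and says nothing of shared control.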

How the data were processed

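Expression was measured on 12 Affymetrix arrays, 3 in each of 4 groups taken from the sample labels. The values are log2 signals as deposited by the authors, with a lower bound of 4; how they were summarized and normalized is not stated. Nothing was rescaled. Of 54675 probe sets, 62 control probe sets were left out and 54613 tested with limma 3.58.1 in R 4.3.3, as 1 model of 4 group means with Benjamini-Hochberg adjustment over all 54613 and a threshold of 0.05. A call at gene level used the probe set with the highest mean. Genes were named from the platform annotation, in which 41091 probe sets name 1 gene, 1801 several and 11721 none. Of each list, up to 4 called genes with the smallest p were named in MMS1, up to 3 in RPMI8226 and up to 3 between the controls, with the 8 genes most like CXCL8 and the 5 most like CXCR4. The 10 chemokine genes and the lists were chosen with earlier results of these data known. Same-numbered arrays of different groups did not deviate together (18 pairs, r = -0.07 to 0.06), so replicate numbers were not used as pairs. Alternatives were quantile normalization, a filter on mean signal, a replicate block, array weights, gene means and leaving out each array. Precision is limited by the number of arrays. On simulated data it was checked only that the mean estimates recovered the changes put in. Those data had no lower bound and no difference between lines.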

Additional observations from a re-analysis of the deposited data

Results flagged for a closer look

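CXCL8 moved in opposite directions in the 2 lines, with all miR-16 sponge arrays above the controls in MMS1 and below them in RPMI8226. The changes were 2.24 and -0.86 on 202859_x_at and 1.91 and -0.85 on 211506_s_at. The difference between the lines was not tested for CXCL8, since the gene was chosen on it.

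Of the 160 network genes, 17 had a sponge change that differed between the lines by limma's interaction term (RPMI8226 minus MMS1), or 10.6% against 5.9% of all genes. Of these, 13 were named by the rule. The change was smaller in RPMI8226 for GNAI1 (-1.62, adjusted p = 0.000109), IL6 (-1.03, adjusted p = 0.0131), JUN (-0.92, adjusted p = 0.00273), DUSP1 (-0.84, adjusted p = 0.00355) and RAC1 (-0.70, adjusted p = 0.00802). The term was positive for DOCK2 (1.65, adjusted p = 3.57e-05), MYD88 (1.07, adjusted p = 0.00728), STAT3 (1.01, adjusted p = 0.0015) and IRAK1 (0.67, adjusted p = 0.0121). These genes fell in MMS1 and changed less in RPMI8226, where they gave -0.01, -0.08, -0.34 and -0.11 in that order. As the mean of its probe sets DUSP1 did not pass (adjusted p = 0.157), and JUN, DOCK2 and STAT3 gave -0.46, 0.96 and 0.66. Outside the rule were PF4V1 (0.59), NFKBIA (0.62), TIAL1 (-0.69) and GNAI3 (-0.60). NFKBIA (adjusted p = 0.0213) did not pass as the mean of its probe sets (adjusted p = 0.101), nor when MMS1 control array 1 or 3, RPMI8226 control array 2 or RPMI8226 sponge array 2 was omitted (adjusted p = 0.0501 to 0.063). TIAL1 (adjusted p = 0.0249) failed when any of 9 arrays was omitted, that is any but MMS1 control array 3 and MMS1 sponge arrays 1 and 3 (adjusted p = 0.0501 to 0.0676). It also failed as the mean of its 4 probe sets (-0.22, adjusted p = 0.363) and with a replicate block (adjusted p = 0.0507). GNAI3 (adjusted p = 0.0238) failed when control array 1 or 2 of MMS1, or array 2 or 3 of either RPMI8226 group, was omitted (adjusted p = 0.0542 to 0.0655).

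The remaining 4 named ones each lost their call when any of several arrays was left out. CCR8 (-1.03, adjusted p = 0.0263) did not pass without MMS1 control sponge replicate 2 or 3, MMS1 miR-16 sponge replicate 1, RPMI8226 control sponge replicate 2 or 3 or RPMI8226 miR-16 sponge replicate 2 (adjusted p = 0.0568 to 0.0698). NFKBIZ (-0.64, adjusted p = 0.0215) did not pass without MMS1 control sponge replicate 1 or 2, RPMI8226 control sponge replicate 3 or RPMI8226 miR-16 sponge replicate 2 or 3 (adjusted p = 0.0537 to 0.0633). JUNB (0.64, adjusted p = 0.0302) did not pass without any of 9 arrays, all except MMS1 control sponge replicate 2, MMS1 miR-16 sponge replicate 1 and RPMI8226 miR-16 sponge replicate 3 (adjusted p = 0.0518 to 0.0831). EGR1 (0.67, adjusted p = 0.05) failed when any of 10 arrays was omitted, that is any but RPMI8226 control array 1 and MMS1 sponge array 3 (adjusted p = 0.0606 to 0.119), with a replicate block (adjusted p = 0.0798) and with quantile normalization (adjusted p = 0.054).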

How the results depend on the processing

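CXCL8 kept its direction under every alternative run; with a replicate block 202859_x_at gave 2.24 in MMS1, -0.86 in RPMI8226 and 1.17 between the controls, and with 1 array left out 2.07 to 2.39, -0.89 to -0.80 and 1.01 to 1.32. The number of probe sets called in RPMI8226, 107, depended most on the setting: 329 with a mean of at least 5, 32 with the replicate block, 524 with array weights, and 22 (without RPMI8226 control sponge replicate 3) to 723 (without MMS1 miR-16 sponge replicate 1). Network genes called there numbered 1, against 2 with a mean of at least 5, 3 with array weights and 0 to 3 with 1 array left out. Leaving out 1 array gave 3730 to 5570 probe sets and 20 to 27 network genes in MMS1 (5635 and 26 with all arrays), 1845 to 2797 and 9 to 16 for the difference between lines (2786 and 17), and 2747 to 5379 and 14 to 24 between the controls (4465 and 22). NDST1 reversed between the controls, to -0.07 as the mean of its probe sets (adjusted p = 0.805); the cause was not tested. Of 18 same-number pairs 0 had r over 0.1, but this cannot show whether same-numbered arrays shared a culture or a batch. Signals near the bound of 4 cannot show a further decrease.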

Other observations

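Among the same 799 genes, MS4A3 followed the CXCR4 probe set with the highest mean most closely over the 12 arrays (r = 0.90), ahead of NBPF20 and the kinesin gene KIF2A (0.89 each), ZFAND5 (0.88) and MXD1 (0.87), a partner of MAX. MS4A3 and ZFAND5 were also among the genes closest to CXCL8. KIF2A gave 0.90 in MMS1 and -0.47 in RPMI8226, and MXD1 gave 0.93 and -0.15.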
